A study of Canis lupus familiaris with 36 samples.

Results

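The comparison described here is that of CLBL-1 cells incubated for 72 h with ibrutinib plus AS-605240 (Ibr + AS) against cells incubated for 72 h with the solvent dimethyl sulfoxide (DMSO) alone. CLBL-1 is an established canine diffuse large B-cell lymphoma line. The members are the libraries whose labels name this pair of treatments and 72 h, which are 6 of the 36 libraries of the series, 3 with Ibr + AS and 3 with DMSO. Ibr + AS libraries came from cells given 1 µM ibrutinib and 5 µM AS-605240 together, and the DMSO controls received the solvent at the concentration of the combined treatment and no inhibitor. The series sequenced poly-A RNA of cells after 24, 48 and 72 h, and its other treatments were ibrutinib alone (Ibr) and AS-605240 alone (AS). Cells of 3 passages gave 1 library each per group, and the passages are numbered here as replicates 1, 2 and 3. All libraries stem from 1 line, so the spread between replicates is that between passages of the line and not between dogs.

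Ibrutinib binds Bruton tyrosine kinase (BTK), which carries the signal of the B-cell receptor from the membrane to phospholipase C, calcium release and NF-kB. AS-605240 inhibits the gamma form of phosphoinositide 3-kinase (PI3K), a family of lipid kinases whose product recruits AKT to the membrane. AKT holds FOXO transcription factors out of the nucleus and acts on mTOR, growth and metabolism. In B cells both routes are fed by surface receptors, and their early transcriptional targets include EGR1 and other immediate early genes.

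Between 10646809 and 14581090 reads were counted on genes in the DMSO libraries and between 9941919 and 12736326 in the Ibr + AS libraries, which is within the range of the series (9941919 to 14703839). Levels are given as CPM, the reads of a gene scaled to a fixed library total after TMM normalisation, and they were compared for each gene between libraries, never between genes. By the distance between libraries over the log2 CPM of all genes with at least 1 CPM, 5 of the 6 libraries lay nearest to their own group. Ibr + AS replicate 3 lay nearer to the Ibr + AS libraries of 48 h (mean distance 32.4) than to the other Ibr + AS libraries of 72 h (38.8), so results are also given without it where that changed a call. Of 8 markers of B cells, 3 could be followed, and all 3 had reads in every library. Of these TNFRSF13C went from 69.0 to 81.5 CPM in DMSO to 150.3 to 236 CPM in Ibr + AS, and TCF4 ranged from 81.2 to 99.5 and from 85.3 to 91.5 CPM. The summed level of the 3 markers, most of it DLA-DRA, was 4325 to 4908 CPM with DMSO and 2320 to 3511 CPM with Ibr + AS. CD79A, CD79B, MS4A1 and PAX5 were not analysed here because no symbol was at hand for their identifiers. The 4 T-cell markers that could be followed of 8 held at most 3 reads in any of the 6 libraries. Of 5 myeloid markers 3 could be followed. LYZ was at 88.0 to 115 CPM with DMSO and 136 to 172 CPM with Ibr + AS, CSF2RB at 9.03 to 10.1 and 10.4 to 18.2 CPM, and TREM2 had at most 1 read. None of the 3 plasma cell markers could be followed. Because bulk RNA was sequenced, fewer cells of a kind and less RNA per cell cannot be told apart.

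After 72 h with Ibr + AS, the transcriptome of the cells differed broadly from the controls, and more genes were lower than higher. The heme-degrading enzyme HMOX1 rose most among genes with a symbol and at least 1 CPM, whereas the immediate early transcription factor EGR1, its corepressor NAB2, the serine synthesis enzyme PSAT1, the cholesterol synthesis enzymes SQLE and ACAT2, the anti-apoptotic gene BCL2 and the oncogene MYB were lower. A differentially expressed gene (DEG) is one whose log2 fold change (FC) is above 1 or below -1 and whose p in edgeR's quasi-likelihood test, adjusted by Benjamini-Hochberg, is at most 0.05. Of 18670 genes tested, 1405 were DEGs (7.53%), of which 603 were higher (3.23%) and 802 lower (4.3%) with Ibr + AS. By the adjusted p alone 5331 genes passed (28.6%), 2628 of them higher (14.1%) and 2703 lower (14.5%). The median log2 FC of all genes tested was 0.00285. In 1386 of the 1405 DEGs the direction was the same in all 3 passages, and in 1358 the 3 libraries of one group did not overlap with those of the other. The same libraries made the calls, so these counts describe the DEGs and add no support to them. Over all genes tested, 16.6% were higher in every Ibr + AS library than in any DMSO library, and 18.1% were lower in every one. When the test asked for a log2 FC beyond 1 instead of beyond 0, 523 genes passed, 197 higher and 326 lower. Without Ibr + AS replicate 3 there were 1231 DEGs.

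The DEGs with at least 1 CPM, 428 higher and 603 lower of 10840 such genes, had a median level of 8.91 and 9.50 CPM, against 32.6 CPM over all genes at that level. Their median log2 FC was 1.34 and -1.46. A log2 FC beyond 2 was found for 76 of the higher and 139 of the lower ones. Genes that were higher took 1.89%, 1.79% and 1.89% of the reads in the DMSO libraries and 3.78%, 4.51% and 5.14% with Ibr + AS. Genes that were lower took 5.60%, 5.47% and 5.47% with DMSO and 1.90%, 1.79% and 1.80% with Ibr + AS. The share of either set was nearly level over the DMSO libraries, and that of the higher set spread more over the Ibr + AS libraries. Of the higher DEGs, 118 had at most 3 reads in every DMSO library, and of the lower ones 133 had at most 3 reads in every Ibr + AS library, so that their fitted FC carries no size. Symbols could be paired with 1068 of the genes tested, and 93 of these were DEGs (8.71%), 38 higher (3.56%) and 55 lower (5.15%). The genes named as changing most are therefore the largest among the 1068 only, as the plot of FC against level shows by its unlabelled points.

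**Figure D1:**
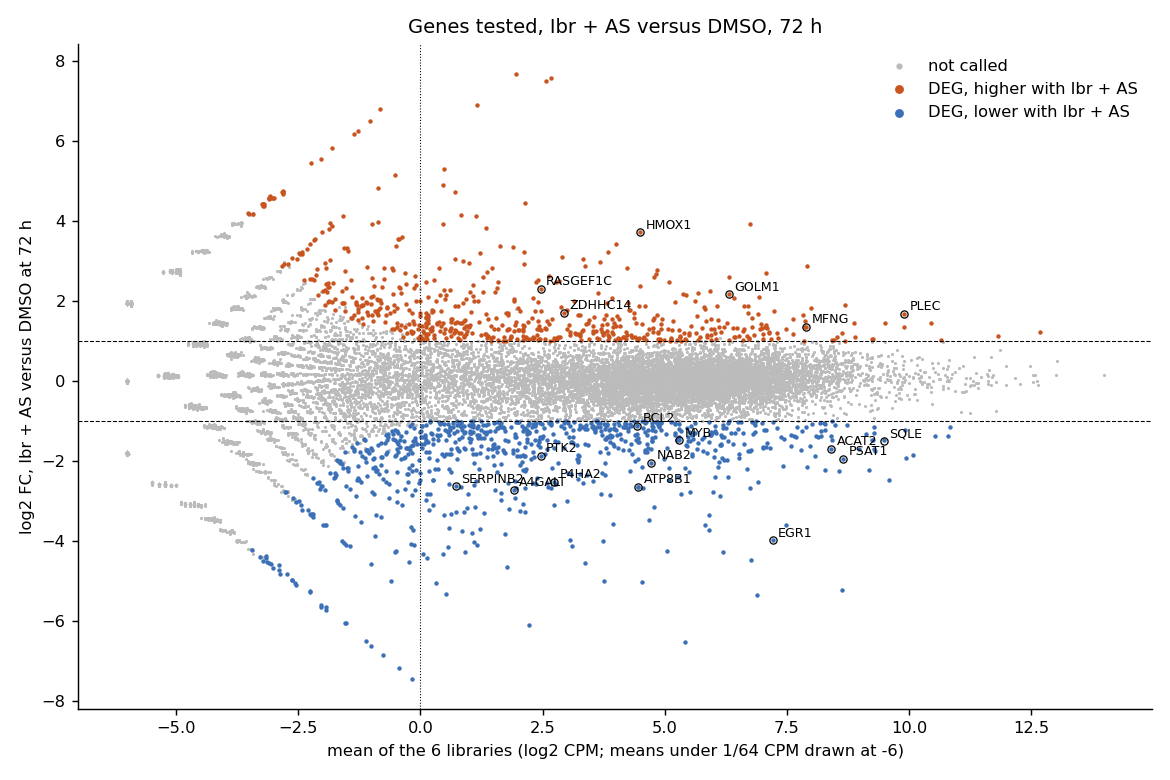
Log2 FC of Ibr + AS versus DMSO at 72 h (vertical axis) against the mean level of the 6 libraries in log2 CPM (horizontal axis), with 1 point for each of the 18670 genes tested. Coloured points are the 603 higher and 802 lower DEGs, circles mark some of the genes named in the text, dashed lines stand at a log2 FC of -1 and 1 and the dotted line at 1 CPM. The fall of EGR1 and the rise of HMOX1 stand out among labelled genes.

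The 12 DEGs with a symbol that rose most included an enzyme of heme breakdown, cytoskeletal and membrane proteins, a ubiquitin ligase component and the BAFF receptor. HMOX1, which cleaves heme to biliverdin, iron and carbon monoxide, was at 2.73, 3.01 and 3.79 CPM in DMSO replicates 1, 2 and 3. With Ibr + AS it was at 25.6, 37.9 and 61.95 CPM. Every Ibr + AS library lay above every control, with a spread over passages of 25.6 to 62.0 CPM (log2 FC 3.72, SE 0.37, adjusted p = 3.18e-08). GOLM1, which encodes a membrane protein of the Golgi, went from 31.3, 25.9 and 28.7 to 115, 149.5 and 125.7 CPM (log2 FC 2.17, SE 0.12, adjusted p = 3.94e-19). PLEC encodes plectin, a linker between intermediate filaments, actin and membrane anchors, and was at 476, 369.8 and 517 CPM with DMSO and 1595, 1636 and 1143 CPM with Ibr + AS (log2 FC 1.68, SE 0.19, adjusted p = 1.40e-07). The groups of both genes were apart in all 3 passages.

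MTSS1 encodes a scaffold that bends membranes and binds actin. It went from 7.47, 5.46 and 7.50 to 12.98, 25.3 and 22.2 CPM (log2 FC 1.54, SE 0.18, adjusted p = 5.09e-09), with the smallest difference in replicate 1. BYSL, a factor needed for the maturation of the small ribosomal subunit, was nearly level across the controls at 74.04, 73.7 and 74.98 CPM and rose to 212, 175 and 196 CPM (log2 FC 1.39, SE 0.09, adjusted p = 3.14e-26). MFNG, a glycosyltransferase that modifies Notch receptors, was at 130.5, 127.8 and 143 and 338, 286 and 399 CPM (log2 FC 1.35, SE 0.10, adjusted p = 2.29e-19). TNFRSF13C, the receptor for the survival cytokine BAFF, was at 69.04, 81.5 and 73.9 CPM in the controls and 150.3, 185 and 236 CPM with Ibr + AS (log2 FC 1.34, SE 0.10, adjusted p = 1.79e-20). The palmitoyltransferase gene ZDHHC14 rose by a log2 FC of 1.70 (SE 0.17) and RASGEF1C, which encodes a guanine nucleotide exchange factor of the Ras family, by 2.31 (SE 0.23). FBXO32, GRTP1 and SAPCD1 also met the limits at low levels. FBXO32, the ubiquitin ligase component atrogin-1 and a known target of FOXO, was at 0.867, 0.470 and 0.242 CPM with DMSO and 1.80, 1.49 and 1.68 CPM with Ibr + AS, all libraries of the one group under those of the other (log2 FC 1.59, SE 0.39, adjusted p = 6.52e-04).

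The 12 DEGs with a symbol that fell most were led by EGR1. It was at 277, 239 and 308 CPM with DMSO and at 41.5, 7.94 and 12.9 CPM with Ibr + AS, so that replicate 1 kept more of it than the others did (log2 FC -3.99, SE 0.58, adjusted p = 9.23e-06). In a fit on the 6 libraries of these groups alone the log2 FC was the same and the adjusted p was 0.0976. NAB2, which binds EGR1 and represses its activity, went from 37.4, 44.4 and 45.9 to 11.9, 9.63 and 8.94 CPM (log2 FC -2.05, SE 0.13, adjusted p = 1.15e-27). PSAT1, which makes phosphoserine on the way to serine, went from 575, 661 and 689 to 175, 161 and 162 CPM and had the smallest SE of these 12 genes (log2 FC -1.95, SE 0.09, adjusted p = 2.55e-38).

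A4GALT, which builds the glycolipid globotriaosylceramide (CD77), fell from 6.40, 6.40 and 6.85 to 1.02, 0.695 and 1.21 CPM (log2 FC -2.73, SE 0.28, adjusted p = 3.80e-12). ATP8B1, a flippase that moves phospholipids across the plasma membrane, fell from 39.6, 33.4 and 40.8 to 6.33, 7.35 and 4.47 CPM (log2 FC -2.65, SE 0.22, adjusted p = 5.07e-10). P4HA2, a subunit of the prolyl hydroxylase of collagen, fell from 12.3, 13.1 and 8.71 to 1.72, 2.38 and 1.86 CPM (log2 FC -2.52, SE 0.22, adjusted p = 9.85e-16). In none of these did any library of the one group reach the range of the other. PTK2, which encodes focal adhesion kinase, was at 9.47, 7.81 and 8.63 CPM with DMSO and 2.11, 3.48 and 1.58 CPM with Ibr + AS (log2 FC -1.87, SE 0.21, adjusted p = 3.87e-13). IL23A, which encodes the subunit particular to interleukin 23, was at 5.00, 8.56 and 6.93 and 1.72, 1.69 and 2.05 CPM (log2 FC -1.88, SE 0.25, adjusted p = 2.36e-10). The serine protease inhibitor gene SERPINB2 (log2 FC -2.64, SE 0.35), the syntrophin gene SNTB1 (-1.90, SE 0.21), the class I myosin gene MYO1A (-1.89, SE 0.24) and the aldehyde dehydrogenase gene ALDH8A1 (-1.89, SE 0.25) fell as well, all from under 10 CPM in the controls.

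**Figure D2:**
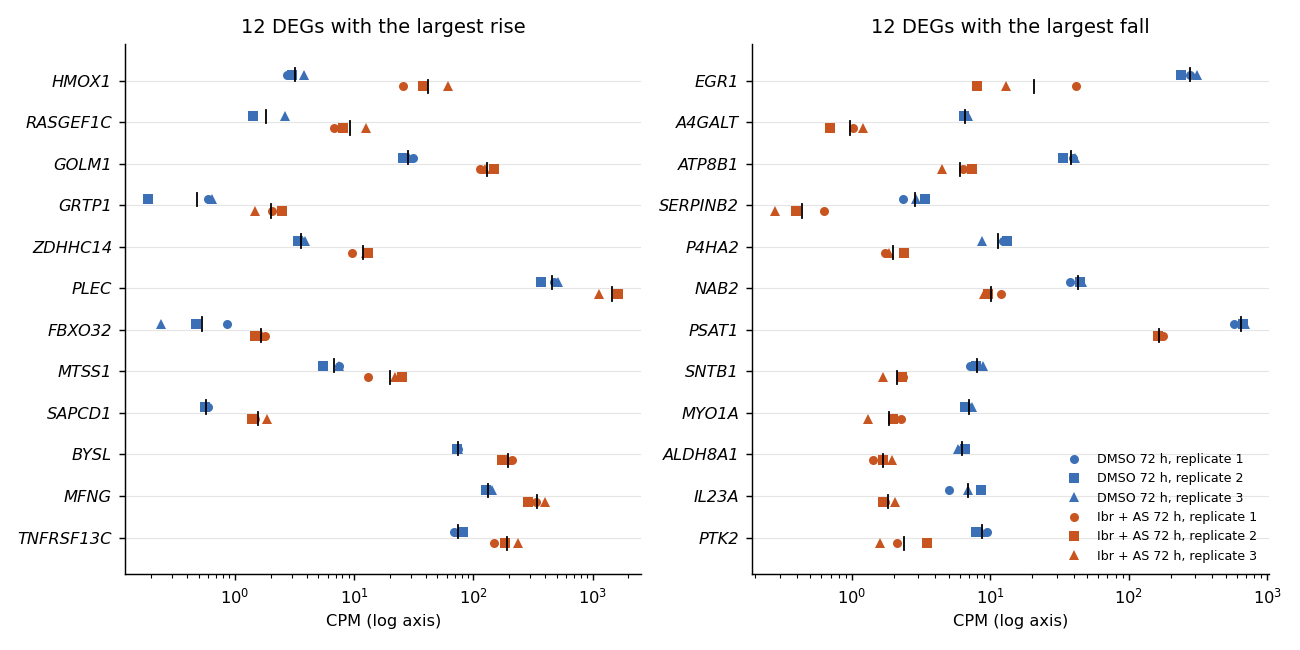
CPM on a log axis of the 12 DEGs with a symbol that rose most (left) and the 12 that fell most (right) in each of the 6 libraries at 72 h, DMSO in blue and Ibr + AS in orange, with a symbol shape for each passage and a black tick at the mean of 3. For each of the 24 genes the libraries of one group lie apart from those of the other, and EGR1 with Ibr + AS spreads from 7.94 to 41.5 CPM.

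Among genes without a symbol at hand, the identifiers ENSCAFG00000009850 and ENSCAFG00000042931 rose most under the same limits. The former had at most 1 read in each DMSO library and was at 5.24, 8.84 and 9.04 CPM with Ibr + AS, at least 32.6-fold higher when the controls are set to 3 reads per library. The latter was at 7.19, 15.2 and 15.6 CPM, at least 53.4-fold higher on the same footing. ENSCAFG00000014490 fell from 82.7, 103 and 66.7 to 0.938, 0.993 and 0.745 CPM (log2 FC -6.54, SE 0.34, adjusted p = 3.61e-13). ENSCAFG00000002152 fell from 6.60, 8.47 and 12.5 CPM to at most 2 reads per library, at least 34.3-fold lower.

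Of 19 genes of the B-cell receptor and NF-kB pathway that could be tested, 2 were DEGs and both higher, 7 passed the adjusted p upwards and 2 downwards, and 10 did not pass. Over all genes tested, 3.23% were DEGs and higher and 4.3% DEGs and lower, and 14.1% passed the adjusted p upwards and 14.5% downwards. The median log2 FC of the list was 0.17, against 0.00285 over all genes. Besides TNFRSF13C, the DEG was DEF6, which encodes a guanine nucleotide exchange factor downstream of the receptor, at 64.5 ± 4.71 CPM with DMSO and 141 ± 13.5 CPM with Ibr + AS (SD, n = 3), with no overlap (log2 FC 1.13, SE 0.09, adjusted p = 7.29e-21). The GTPase gene RAC2 rose by a log2 FC of 0.72 (SE 0.09, adjusted p = 9.71e-11) and DOCK8, another exchange factor, by 0.54 (SE 0.14, adjusted p = 0.00256), both under the fold limit. NFATC1, the calcium-dependent transcription factor, was lower by the adjusted p (log2 FC -0.38, adjusted p = 0.00209), and so was TNFAIP3, the inhibitor of NF-kB known as A20 (-0.42, adjusted p = 0.0012). MALT1, TAB2, TBK1 and MAPK9 had log2 FC between -0.21 and 0.12 and did not pass. BTK and SYK themselves were not analysed here.

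The immediate early and activation genes that passed the fold limit were mostly lower. Of 10 members tested, 5 were DEGs and lower (EGR1, NAB2, TRIB1, IER3 and TNF), against 4.3% of all genes, and 1 was a DEG and higher (IRF1), against 3.23%. The list's median log2 FC was -0.53. TRIB1, a pseudokinase that steers proteins to degradation, was at 106, 109 and 105 CPM with DMSO and 24.8, 39.02 and 41.2 CPM with Ibr + AS (log2 FC -1.59, SE 0.23, adjusted p = 7.13e-06). IER3, an early gene with a part in the stress response, was at 15.1, 17.9 and 22.2 and 8.05, 5.36 and 9.50 CPM (log2 FC -1.25, SE 0.19, adjusted p = 2.11e-06). IRF1, a transcription factor of interferon responses, went the other way, from 38.5, 40.9 and 43.1 to 74.7, 77.5 and 96.5 CPM (log2 FC 1.02, SE 0.10, adjusted p = 1.16e-15). Without Ibr + AS replicate 3 its log2 FC was 0.90, under the limit. MYC was at 269, 278 and 267 CPM with DMSO and 256, 273 and 279 CPM with Ibr + AS, and the groups overlapped (log2 FC -0.01, SE 0.10). KLF10 was not called (log2 FC 0.93, adjusted p = 0.0573), and PIM1 (0.36) and LTA (0.37) rose by the adjusted p only.

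In the PI3K, AKT, mTOR and FOXO list, 15 members were tested. FBXO32 and PFKFB2 were DEGs and higher, SGK1 was a DEG and lower, and 8 passed the adjusted p upwards and 3 downwards. The shares over all genes were 3.23% and 4.3% for DEGs and 14.1% and 14.5% for the adjusted p. The list had a median log2 FC of 0.28, and of 0.177 without DMSO replicate 2. PFKFB2, which makes the activator of phosphofructokinase, went from 3.40, 2.92 and 3.06 to 8.76, 8.04 and 6.24 CPM (log2 FC 1.29, SE 0.20, adjusted p = 3.23e-08). SGK1, a kinase that shares its upstream activation and some substrates with AKT, went from 86.05, 79.01 and 79.4 to 26.1, 28.6 and 36.6 CPM (log2 FC -1.41, SE 0.24, adjusted p = 7.90e-05). PIK3R1, the regulatory subunit of class I PI3K, was at 49.03, 47.1 and 48.1 CPM with DMSO and 69.7, 68.6 and 61.8 CPM with Ibr + AS, apart but under the fold limit (log2 FC 0.47, SE 0.10, adjusted p = 2.42e-05). TFEB, a transcription factor of lysosomal genes that mTOR restrains, rose by 0.66 (SE 0.09, adjusted p = 5.01e-10). FNIP1, a partner of folliculin in nutrient sensing, was lower (log2 FC -0.89, SE 0.19, adjusted p = 6.35e-04) and passed the fold limit without Ibr + AS replicate 2 (-1.03). RPS6, the ribosomal protein at the end of the mTOR route, did not pass.

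Class II genes of antigen presentation were lower by the adjusted p, and the 5 members of 8 that passed it, 4 lower and 1 higher, did so under the fold limit (median log2 FC -0.25). Of all genes, 14.5% were lower and 14.1% higher by the adjusted p. DLA-DRA, the invariant alpha chain of the canine class II molecule DR, was at 4434, 4745 and 4163 CPM with DMSO and 2079, 2654 and 3189.6 CPM with Ibr + AS (log2 FC -0.76, SE 0.11, adjusted p = 2.12e-08). DLA-DQA1 had a log2 FC of -0.69 (SE 0.12, adjusted p = 8.11e-06) and DLA-DMA, which loads peptides, one of -0.58 (SE 0.09, adjusted p = 1.32e-07). DLA-DOA followed with a log2 FC of -0.32, adjusted p = 0.015. All Ibr + AS libraries lay below the controls for the first 3 of these. The class I side did not share the direction, since TAPBP, which tethers class I molecules to the peptide transporter, rose by 0.67 (SE 0.09, adjusted p = 5.87e-10) and TAP1 (0.05, adjusted p = 0.746) and DLA88 (-0.18, adjusted p = 0.2) did not pass. DLA genes are close relatives of each other, and reads that fit several of them could not be placed.

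Of 19 cytokine and receptor genes tested, 12 had at least 1 CPM. TNFRSF13C and IRF1 were DEGs and higher, and IL23A, TNF and IL5 were DEGs and lower, IL5 at a mean of only 0.858 CPM, where 3.23% of all genes were DEGs and higher and 4.3% DEGs and lower. TNF, the proinflammatory cytokine, was at 33.95, 33.6 and 30.6 CPM with DMSO and 14.9, 14.4 and 18.5 CPM with Ibr + AS (log2 FC -1.04, SE 0.29, adjusted p = 0.0072). Its call rested on the fold limit and on single libraries: without DMSO replicate 1 the log2 FC was -0.89, and without Ibr + AS replicate 2 it was -0.93. LTA, which lies beside TNF, was higher by 0.37, adjusted p = 0.00264. IRF5 rose by 0.65, adjusted p = 1.34e-09, while STAT2 (0.14, adjusted p = 0.317) and the interferon gamma receptor chain IFNGR1 (-0.07, adjusted p = 0.616) did not pass. The median log2 FC was -0.01 over the 19 members and 0.30 over the 12 with at least 1 CPM. The former ranged from -0.1202 without DMSO replicate 3 to 0.1967 without DMSO replicate 1, and it was 0.2409 with filterByExpr, so it has no stable sign.

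BCL2 and GSDMD were the DEGs of the apoptosis and p53 list, in opposite directions, among 9 members tested. Of all genes, 3.23% were DEGs and higher and 4.3% DEGs and lower. The median of the list was 0.08, and -0.0701 without Ibr + AS replicate 1. BCL2, the inhibitor of mitochondrial apoptosis, was at 30.4, 28.8 and 29.9 CPM with DMSO and 17.2, 12.1 and 11.6 CPM with Ibr + AS (log2 FC -1.12, SE 0.12, adjusted p = 2.54e-13). The controls varied little and replicate 1 kept the highest level among the Ibr + AS libraries. GSDMD, which forms membrane pores in pyroptosis once cleaved, went from 68.4, 78.7 and 65.9 to 143, 139.9 and 189 CPM (log2 FC 1.14, SE 0.10, adjusted p = 2.85e-17), with a log2 FC of 0.99 without Ibr + AS replicate 3. BAK1, a pore-forming effector of apoptosis, rose by 0.46 (SE 0.10, adjusted p = 3.69e-05), and MDM2, the ubiquitin ligase that holds p53 down, was lower (log2 FC -0.71, SE 0.09, adjusted p = 5.59e-11). DAPK1, DAXX, MAP3K5, TNFAIP8 and RRM2B did not pass.

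Of 24 cell cycle genes tested, 11 were lower by the adjusted p and 2 higher, against 14.5% and 14.1% of all genes, and 11 did not pass. The median log2 FC was -0.23, and 2 members were DEGs, against 7.53% of all genes. CDC25C, the phosphatase that starts mitosis by activating CDK1, was one of the 2 DEGs and went from 56.4, 57.9 and 50.7 to 27.1, 22.04 and 21.7 CPM (log2 FC -1.21, SE 0.11, adjusted p = 2.89e-17). The other was the CDK inhibitor gene CDKN2B, from 177, 219 and 199 to 104, 78.2 and 109 CPM (log2 FC -1.02, SE 0.15, adjusted p = 4.23e-06), whose log2 FC was -0.95 without DMSO replicate 2 and -0.88 without Ibr + AS replicate 2. CDK2 (-0.66, SE 0.10, adjusted p = 4.58e-08) and the chromatin ATPase ATAD2 (-0.68, SE 0.10, adjusted p = 7.57e-09) were lower under the fold limit. CCND3, a D-type cyclin, was higher (0.43, adjusted p = 3.33e-05), and so was TCF19 (0.55, adjusted p = 1.70e-05). The replication helicase subunit MCM5 (0.14, adjusted p = 0.285) and the mitotic kinesin KIF20A (0.14, adjusted p = 0.28) did not pass.

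In the list of ATF4, serine and aminoacyl-tRNA genes all 10 members tested passed the adjusted p, 8 lower and 2 higher, against 14.5% and 14.1% of all genes, and the median log2 FC was -0.51. PSAT1 and TRIB1 were its DEGs, both described above. SHMT2, the mitochondrial enzyme that moves the carbon of serine into the folate pool, was lower (log2 FC -0.69, adjusted p = 3.94e-09), as was MTHFD1L, a later step of that route (-0.51, adjusted p = 1.17e-06). ATF4, the transcription factor of the amino acid response, was lower too (-0.35, adjusted p = 0.00974). The tRNA synthetases MARS1 (-0.52) and NARS1 (-0.59) and the tRNA exporter XPOT (-0.49) had the same direction, whereas the valine tRNA synthetase VARS1 was higher by 0.72 (SE 0.09, adjusted p = 2.14e-10) and PYCR3, an enzyme of proline synthesis, by 0.72 (SE 0.09, adjusted p = 3.76e-11).

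Only 3 of 19 genes of cholesterol synthesis could be followed, and all 3 were lower. SQLE, which makes squalene epoxide, was at 1050.0, 1135 and 996 CPM with DMSO and 417, 361 and 352 CPM with Ibr + AS (log2 FC -1.49, SE 0.10, adjusted p = 8.89e-25). ACAT2, the cytosolic thiolase that feeds acetoacetyl-CoA into the route, was at 489, 551 and 514 and 180.5, 136 and 163 CPM (log2 FC -1.70, SE 0.09, adjusted p = 2.36e-32). SREBF2, the transcription factor of the route, was at 1086, 947 and 1011 and 836, 693 and 735 CPM, under the fold limit (log2 FC -0.43, SE 0.09, adjusted p = 4.91e-05). The groups did not overlap for any of the 3. Of all genes, 18.1% were lower in every Ibr + AS library, 14.5% were lower by the adjusted p and 4.3% were DEGs and lower.

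In the hypoxia and glycolysis list, 7 members were tested, of which P4HA2 fell and PFKFB2 rose, where 7.53% of all genes were DEGs. The median log2 FC was -0.02, and -0.1558 without Ibr + AS replicate 1 and -0.0624 without Ibr + AS replicate 3. HIF1AN, the hydroxylase that restrains HIF1, rose by 0.74 (SE 0.13, adjusted p = 6.90e-07) under the fold limit, and CITED2 (-0.06, SE 0.11) and the lipid droplet gene PLIN2 (-0.02) did not pass. Of 9 genes of heme, iron and redox, HMOX1 was the DEG that rose and TSPO, a mitochondrial outer membrane protein that binds porphyrins, the one that fell, from 37.8, 45.99 and 36.1 to 21.03, 15.4 and 21.8 CPM (log2 FC -1.04, SE 0.13, adjusted p = 4.13e-11). Without DMSO replicate 2 the log2 FC of TSPO was -0.90, and without Ibr + AS replicate 2 it was -0.91. Thioredoxin reductase, TXNRD1, rose by 0.71 (SE 0.09, adjusted p = 1.34e-11), and the autophagy receptor SQSTM1 by 0.42, adjusted p = 2.52e-04. FECH, which inserts iron into protoporphyrin to make heme (-0.44, adjusted p = 6.44e-04), and the aconitase and iron sensor ACO1 (-0.56, SE 0.10, adjusted p = 1.88e-06) were lower. By the adjusted p 3 members were higher and 3 lower, against 14.1% and 14.5% of all genes, and the list's median was -0.10.

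Ribosomal protein genes had log2 FC between -0.14 and 0.14. Of 15 genes of the ribosome and translation list 13 did not pass the adjusted p, and the 2 that did were under the fold limit (median 0.01), where 28.6% of all genes passed. EIF4G2, an initiation factor for translation without the cap-binding complex, was higher by 0.54 (SE 0.09, adjusted p = 3.70e-07) and EIF3E lower (log2 FC -0.45, SE 0.11, adjusted p = 0.00152), while EIF3H (-0.18) and NACA (-0.19) did not pass. Ribosomal proteins have many processed copies in mammalian genomes, with which they may share reads. In ribosome biogenesis, 6 of 13 members passed the adjusted p, all higher, against 14.1% of all genes, with a median of 0.26. BYSL was the DEG. POP1, a protein of the RNase P and MRP complexes, rose by 0.81 (SE 0.10, adjusted p = 3.80e-12), WDR46 by 0.68 (SE 0.10, adjusted p = 3.39e-08) and NHP2, a protein of box H/ACA particles, by 0.54 (SE 0.10, adjusted p = 1.84e-05).

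Of 21 mitochondrial genes 6 were higher and 3 lower by the adjusted p, against 14.1% and 14.5% of all genes, all under the fold limit and with a median of 0.12. All 21 had at least 1 CPM, which many of the genes behind these shares had not. SCO2, which delivers copper to cytochrome oxidase, was the highest (0.57, SE 0.12, adjusted p = 1.07e-04). TFB1M, the methyltransferase of mitochondrial ribosomal RNA, was the lowest (-0.67, SE 0.18, adjusted p = 0.00178), ahead of CHCHD3 (-0.53) and MRPL13 (-0.48). Of 12 lysosomal genes, 5 were higher and 1 lower by the adjusted p, where the same shares of all genes apply. The sulfatase gene ARSB (0.72, SE 0.11, adjusted p = 6.03e-08), CD63 (0.62, adjusted p = 7.99e-08) and TFEB rose under the fold limit and the fucosidase gene FUCA2 was lower (-0.70, SE 0.11, adjusted p = 2.97e-08). The median of the lysosome list was 0.28, and 0.0748 without replicate 3 of both groups. Of 15 genes of the endoplasmic reticulum (median 0.24), 7 were higher and 3 lower by the adjusted p. CRELD2, a chaperone-like protein of the stressed reticulum, was the DEG, where 3.23% of all genes were DEGs and higher, and went from 18.5, 18.8 and 19.6 to 37.1, 33.4 and 47.98 CPM (log2 FC 1.06, SE 0.12, adjusted p = 4.35e-13), with 0.86 without Ibr + AS replicate 3. The cargo receptor LMAN1 was lower (-0.67, SE 0.11, adjusted p = 4.17e-07), and of the coat proteins SEC24A was lower (-0.44, adjusted p = 0.00122) and SEC31A higher (0.42, adjusted p = 4.72e-04).

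The actin and adhesion list held 5 DEGs of 18 members tested, against 7.53% of all genes. All its members had a symbol at hand, and it was chosen with earlier results of these data known. No excess is therefore read from this count. MTSS1 and MYH9, the heavy chain of non-muscle myosin (log2 FC 1.02, adjusted p = 3.50e-17), were higher. PTK2, SNTB1 and AKAP12, a scaffold for protein kinases A and C, were lower. AKAP12 went from 8.67, 6.87 and 8.30 to 3.13, 3.08 and 2.05 CPM (log2 FC -1.52, SE 0.21, adjusted p = 1.51e-09). By the adjusted p alone, 9 members were higher and 4 lower, against 14.1% and 14.5% of all genes, and the median was 0.28. Among the former were the membrane linker EZR (0.61, adjusted p = 6.91e-09), the scaffold IQGAP1 (0.62, adjusted p = 5.31e-08), the integrin chain ITGA4 (0.80, adjusted p = 1.46e-04) and PARVG (1.00, adjusted p = 3.16e-16), the last at the fold limit. In 6 of the 17 lists (immediate early, cell cycle, ATF4 and serine, cholesterol, ribosome biogenesis and endoplasmic reticulum) the median moved by less than 1.5 times under the alternatives run, leaving out libraries included. It changed sign under some of them in the cytokine, apoptosis, hypoxia and ribosome lists, and in the other 7 it kept its sign and moved more. The plot of list members shows the log2 FC behind these counts.

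**Figure D3:**
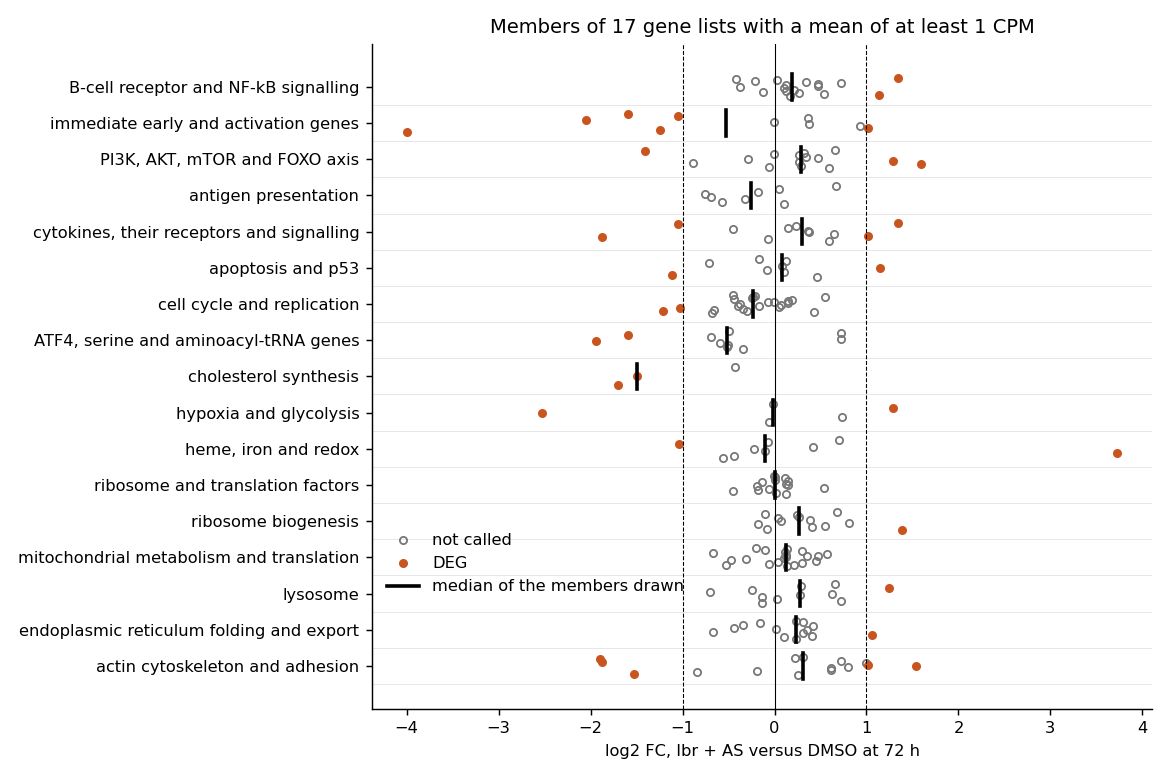
Log2 FC of Ibr + AS versus DMSO at 72 h (horizontal axis) of each member with at least 1 CPM in 17 gene lists (rows). Filled points are DEGs, open points are not, black bars are medians of the points drawn and dashed lines stand at -1 and 1. Immediate early, ATF4 and serine, and cholesterol genes lie mostly to the left of 0, and ribosomal genes lie close to 0.

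MYB, a transcription factor of immature blood cells, was lower in every Ibr + AS library, at 61.5, 53.5 and 58.5 CPM with DMSO and 24.9, 20.5 and 16.8 CPM with Ibr + AS (log2 FC -1.49, SE 0.11, adjusted p = 1.91e-21). DSE, an epimerase of dermatan sulfate, was higher in every one but under the fold limit, at 223, 219 and 206 and 336, 414 and 372 CPM (log2 FC 0.79, SE 0.09, adjusted p = 4.61e-13). NHSL1, which regulates cell migration at the leading edge, had a log2 FC of -0.86 (SE 0.32, adjusted p = 0.0285), with overlapping libraries and opposite direction in 1 of the 3 passages. Without DMSO replicate 2 its log2 FC was -1.17, without Ibr + AS replicate 1 it was -1.02, and without Ibr + AS replicate 2 -1.02, each past both limits.

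The changes at 72 h were then set against those at the earlier incubation times, which come from other libraries of the same passages. Ibr + AS against DMSO gave 1542 DEGs at 24 h (8.26%), 1151 higher (6.16%) and 391 lower (2.09%), and 1435 at 48 h (7.69%), where 908 were higher (4.86%) and 527 lower (2.82%). Among the times, 72 h was thus the one with more lower than higher DEGs. The DEGs at 72 h shared 485 genes with those at 24 h, which is 34.5% of the list at 72 h and 31.5% of that at 24 h. Of these, 432 had the same direction and 53 the opposite one, 52 of which were higher at 24 h and lower at 72 h. With 48 h the list shared 636 genes, 45.3% of the list at 72 h and 44.3% of that at 48 h, with 627 in the same direction. At all 3 times and in 1 direction, 386 genes were DEGs, 239 higher and 147 lower. A further 680 genes passed the limits only at 72 h, 249 higher and 431 lower. Whether an effect was unequal at 72 h and 24 h was tested as a contrast of its own in the same fit. It passed the limits for 1466 genes (7.85%), of which 400 had a higher (2.14%) and 1066 a lower (5.71%) log2 FC at 72 h. Of the 680 genes, 341 passed this test. They were picked by their values at 72 h and 24 h, which the test uses again, so nothing is read from that count.

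HMOX1 was already high at 24 h (63.8, 26.3 and 24.8 CPM with Ibr + AS and 3.26, 3.70 and 4.10 CPM with DMSO), and its effect did not pass the test of a difference from 24 h (difference 0.37, SE 0.55). SQLE, SNTB1, AKAP12, TNFRSF13C and GSDMD had differences between -0.33 and 0.17 that did not pass either. MTSS1 had its largest effect at 24 h, with 61.3, 53.1 and 38.8 CPM against 3.47, 2.97 and 4.10 CPM, and the log2 FC was lower at 72 h (difference -2.33, SE 0.27, adjusted p = 7.30e-09). MYC stood at 426, 325 and 324 CPM with Ibr + AS and 123, 129.6 and 156 CPM with DMSO at 24 h, a log2 FC of 1.39 (SE 0.10, adjusted p = 7.55e-23), and the difference to 72 h was -1.40 (SE 0.14, adjusted p = 9.47e-15). DLA-DRA turned from higher at 24 h (0.61, SE 0.11) to lower at 72 h, a difference of -1.37 (SE 0.15, adjusted p = 2.66e-11).

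For several of the genes that fell most, the control libraries differed between 24 h and 72 h by more than the Ibr + AS libraries did. PSAT1 had means of 211 ± 5.98 CPM with DMSO at 24 h, 233 ± 8.57 CPM at 48 h and 642 ± 59.1 CPM at 72 h (SD, n = 3). With Ibr + AS the means were 142 ± 22.9, 145 ± 13.3 and 166 ± 8.07 CPM (SD, n = 3). The control means were close at 24 h and 48 h and the step lay between 48 h and 72 h. IL23A went from 1.25 to 6.83 CPM in the controls between 24 h and 72 h, and was at 1.87 and 1.82 CPM with Ibr + AS. NAB2 went from 16.6 to 42.5 CPM in the controls and was at 12.03 and 10.2 CPM with Ibr + AS. P4HA2, MYO1A, ALDH8A1 and TRIB1, the last not among the 12 that fell most, had the same pattern. Their control means were 2.11, 1.16, 1.23 and 28.3 CPM at 24 h and 11.4, 6.95, 6.20 and 106 CPM at 72 h. The Ibr + AS means of these genes were 2.11, 1.82, 1.501 and 45.7 CPM at 24 h and 1.99, 1.85, 1.68 and 34.99 CPM at 72 h. PTK2 and A4GALT went the other way. From 24 h to 72 h their log2 FC was -0.24 and 0.47 with DMSO and -1.05 and -2.42 with Ibr + AS. Genes that fell most were picked by values at 72 h, controls included, so a rise in the controls was partly selected for. Some of the genes that rose most were lower in the controls at 72 h than at 24 h. PLEC went from 887 to 454 CPM with DMSO and from 1552 to 1458 CPM with Ibr + AS. For MFNG the log2 FC of 72 h against 24 h was -0.81 with DMSO and 0.04 with Ibr + AS. It was -0.71 and -0.16 for BYSL and -0.80 and -0.13 for GOLM1. In log2 FC, MTSS1, RASGEF1C and FBXO32 changed more with Ibr + AS than with DMSO.

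Over all genes tested, the DMSO libraries of 72 h against those of 24 h gave 1076 DEGs (5.76%), 827 higher (4.43%) and 249 lower (1.33%) at 72 h. The Ibr + AS libraries of 72 h against those of 24 h gave 283 (1.52%), 36 higher (0.193%) and 247 lower (1.32%). The first of these shares the DMSO libraries of 72 h with the comparison of treatments, and the second its Ibr + AS libraries, so no overlap between these lists is given. BCL2 had means of 20.1 and 29.7 CPM with DMSO at 24 h and 72 h and of 17.9 and 13.7 CPM with Ibr + AS, and its effect at 24 h had not passed (log2 FC -0.16, adjusted p = 0.38). A4GALT had means of 4.72 and 6.55 CPM in the controls at 24 h and 72 h and of 5.36 and 0.974 CPM with Ibr + AS (difference of effects -2.89, SE 0.36, adjusted p = 3.30e-09).

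**Figure D4:**
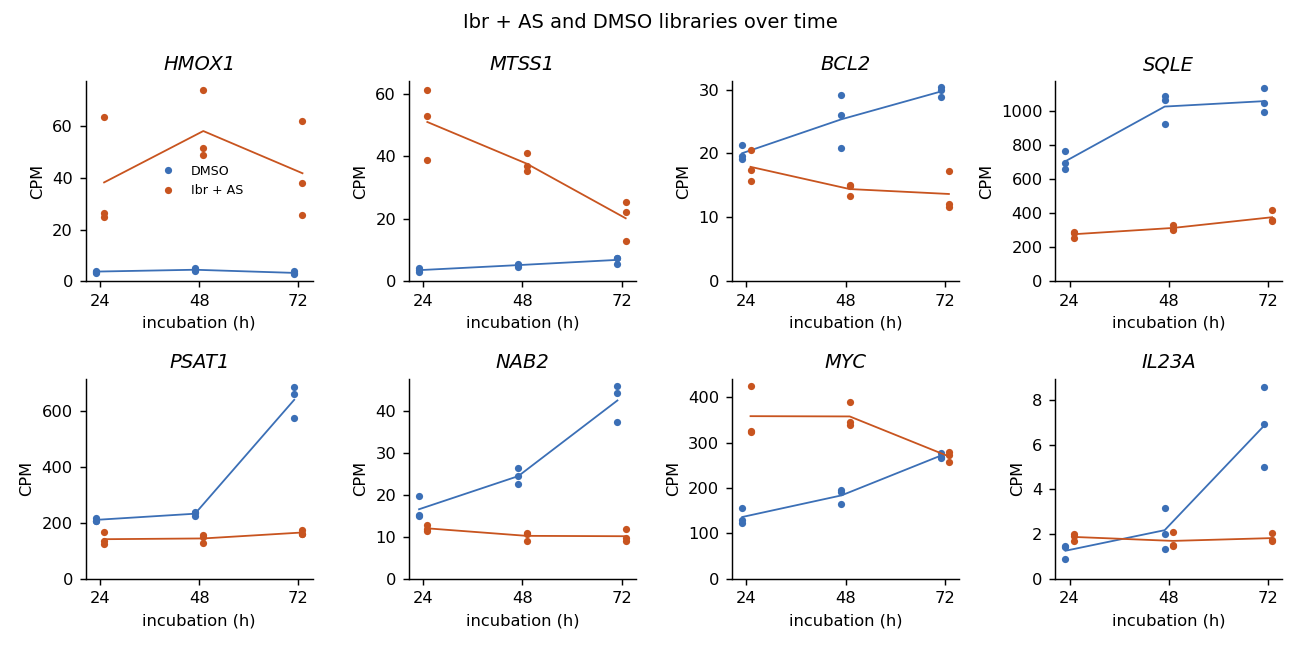
CPM of 8 genes (panels, vertical axes from 0) in the 3 DMSO (blue) and 3 Ibr + AS (orange) libraries at 24, 48 and 72 h of incubation (horizontal axes), with lines through the means. PSAT1, NAB2 and IL23A climb in the controls and stay level with Ibr + AS, MYC meets the controls at 72 h, MTSS1 declines with Ibr + AS from 51.1 to 20.2 CPM, and SQLE is lower with Ibr + AS at each time.

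The combination was finally compared with each inhibitor alone at the same doses and time. These comparisons use the Ibr + AS libraries of 72 h again, and for Ibr only 2 libraries, since the third was discarded in the study as an outlier. Ibr + AS against Ibr gave 323 DEGs (1.73%), 150 higher (0.803%) and 173 lower (0.927%), and Ibr + AS against AS gave 601 (3.22%), 261 higher (1.4%) and 340 lower (1.82%). The count against Ibr hung on single libraries: it was 174 without Ibr replicate 1 and 199 without Ibr + AS replicate 3. Against DMSO, Ibr alone gave 745 DEGs (3.99%), 242 higher (1.3%) and 503 lower (2.69%), and AS alone 409 (2.19%), 133 higher (0.712%) and 276 lower (1.48%), beside the 1405 of the combination.

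For 1 set of genes the combination went beyond both inhibitors. SQLE was at 921 and 824 CPM with Ibr, 1176, 926 and 895 CPM with AS and 417, 361 and 352 CPM with Ibr + AS, lower than with Ibr (log2 FC -1.19, SE 0.11, adjusted p = 1.06e-15) and than with AS (log2 FC -1.41, SE 0.10, adjusted p = 2.58e-22). BCL2 was at 30.2 and 26.7 CPM with Ibr and 27.3, 28.7 and 27.8 CPM with AS, with log2 FC against DMSO of -0.06 and -0.08, and the combination was lower than Ibr (log2 FC -1.06, SE 0.14, adjusted p = 1.34e-09) and than AS (log2 FC -1.03, SE 0.12, adjusted p = 3.90e-11). P4HA2 was at 10.9 and 9.23 CPM with Ibr and 19, 12.2 and 10.05 CPM with AS, against 1.99 CPM on average with both. The same held for AKAP12 (log2 FC -1.40 against Ibr and -1.42 against AS), PTK2 (-1.38 and -1.74), ACAT2 (-1.08 and -1.30), A4GALT (-1.38 and -1.75) and ATP8B1 (-1.05 and -1.46), each a DEG in both comparisons.

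HMOX1 was at 6.83 and 10.4 CPM with Ibr, 4.93, 6.40 and 6.06 CPM with AS and 41.8 CPM on average with both, and the combination was above Ibr by a log2 FC of 2.29 (SE 0.39, adjusted p = 3.58e-04) and above AS by 2.84 (SE 0.34, adjusted p = 1.77e-06). RASGEF1C stood above both as well, by 1.71 and 1.17. EGR1 was below AS (-3.38, SE 0.58, adjusted p = 1.65e-04), while its difference from Ibr did not pass (-1.71, SE 0.62, adjusted p = 0.114). MYB was below AS (log2 FC -1.08, SE 0.12, adjusted p = 4.26e-13) and below Ibr (log2 FC -0.79, SE 0.13, adjusted p = 1.97e-06), the latter under the fold limit.

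For another set no difference between the combination and either inhibitor alone passed. PSAT1 was at 179.7 and 184 CPM with Ibr and 157, 172 and 169 CPM with AS, and the log2 FC of Ibr + AS was -0.12 against Ibr (SE 0.10) and 0.00 against AS (SE 0.09). IL23A was at 1.31 and 1.55 CPM with Ibr and 1.10, 1.07 and 1.20 CPM with AS, with differences of 0.30 (SE 0.36) and 0.70 (SE 0.33). Its Ibr + AS libraries, at 1.72, 1.69 and 2.05 CPM, all lay above those of either inhibitor alone. TRIB1 differed by 0.45 (SE 0.27) and 0.35 (SE 0.24), MYO1A by 0.24 (SE 0.34) and -0.19 (SE 0.29), and PLEC by -0.13 (SE 0.20) and 0.26 (SE 0.18). None of these 5 genes passed in either comparison, and a difference within these errors was not detectable here. NAB2 was near Ibr (-0.16, SE 0.16) and below AS (-1.42, SE 0.13, adjusted p = 2.76e-16). PFKFB2 had its highest values with Ibr alone, 10.4 and 10.9 CPM, and its difference between Ibr + AS and Ibr did not pass (-0.43, SE 0.19).

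**Figure D5:**
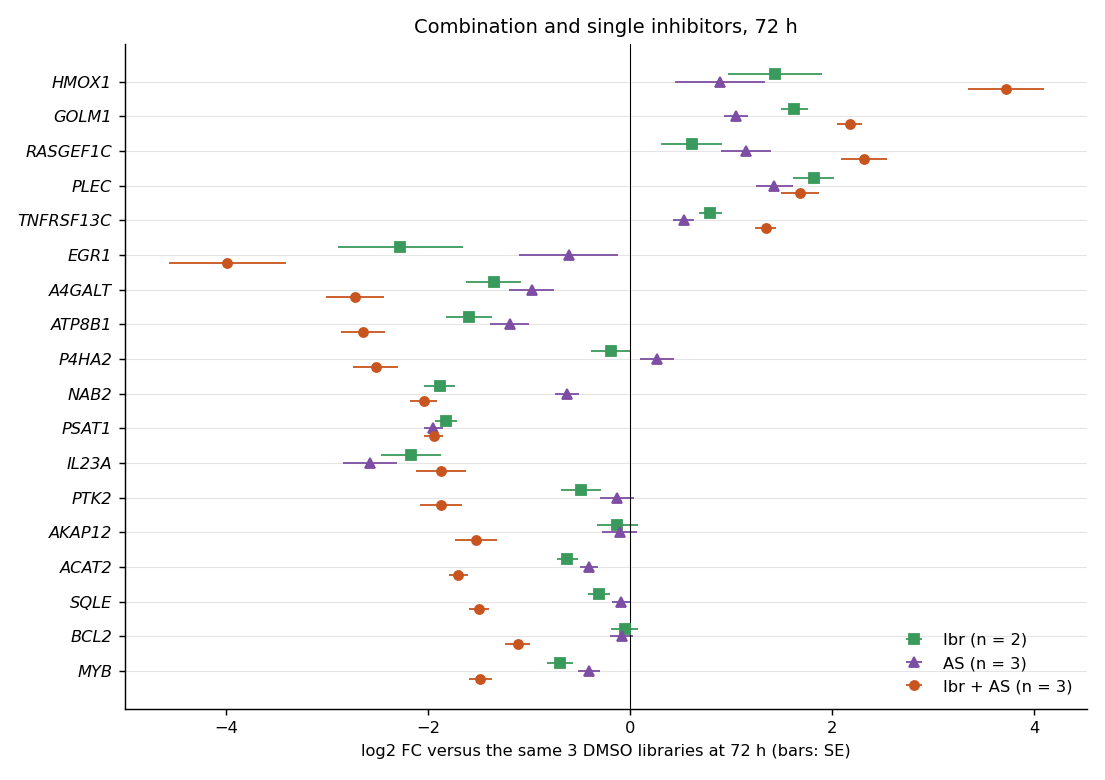
Log2 FC against the same 3 DMSO libraries of 72 h (horizontal axis, bars are SE) for Ibr (2 libraries), AS (3 libraries) and Ibr + AS (3 libraries) in 18 of the genes named in the text (rows). P4HA2, AKAP12, SQLE and BCL2 lie between -0.31 and 0.26 with each inhibitor alone and below -1 with both, whereas the 3 treatments lie close together for PSAT1 and PLEC.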

How the data were processed

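The authors mapped single-end reads of poly-A RNA to CanFam3.1 with STAR 2.7.5a, pooled the lanes of each library and deposited raw counts of reads per Ensembl gene. The strand column kept is not given in the sources used here, so overlapping and antisense genes cannot be told apart. For the third DMSO library of 24 h, the title and the passage field name different passages. The passage field was used, which bears on the comparisons with 24 h only.

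The tests ran in edgeR 4.0.16 under R 4.3.3 (limma 3.58.1). The 35 libraries without Ibr 72 h replicate 3, which the study discarded, were fitted together with passage and the 12 groups of treatment and time as terms, as the study did. A gene was kept when its reads summed to at least 2 (18670 of 30424), scaled by TMM and tested with robust quasi-likelihood fits. The study restricted its tests to protein-coding genes, which was not done here. The SE of a log2 FC is its size divided by the square root of the F statistic. P-values are two-sided and adjusted over all genes tested (Benjamini-Hochberg). They rest on the spread left within groups after the passage term, estimated over all 35 libraries. DESeq2 1.42.0 was an alternative. The procedure was also run on simulated counts without passage or time effects, which checks the code and adds no support to the calls. Other alternatives were RLE factors, other filters, all 36 libraries, no passage term, only the groups compared, glmTreat and each replicate or library left out. No label names a sequencing run. It was inferred from the sample-sheet numbers of the table's header and added as a term after the data were seen.

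Same-numbered replicates are cells of 1 passage. The deviations of libraries from their group means correlated with a median r of 0.0929 within a passage (187 pairs) and -0.0348 across passages. Between DMSO and Ibr + AS at 72 h, r was 0.0835, -0.112 and -0.0441 for replicates 1, 2 and 3. Passage was kept as a term because the study used it. Replicates of these groups differed by more than sampling noise (chi-square per degree of freedom from 3.54 to 24.1), so none was counted as a copy.

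Symbols of 1068 identifiers were read from the given parts of the study's supplementary tables, of which only the names were used. Genes without one were not analysed by name, and no sequences are shown. Named genes are, per direction, the 12 DEGs of largest FC with a symbol, 1 direction in all passages and a mean of at least 1 CPM, up to 4 members per list with the largest FC, genes that the study's text names, and at most 4 identifiers. The members and lists were chosen with earlier results of these data known. Counts of list members beside the share of all genes therefore describe the lists and add no support. Lists are described by counts and medians, with no set test. Other list members, where given, have their log2 FC and in many cases the adjusted p. A few genes measured are not reported here by name.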

Additional observations from a re-analysis of the deposited data

Results flagged for a closer look

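The effect of Ibr + AS against DMSO differed between 72 h and 24 h for 1466 genes when the difference itself was tested in edgeR (adjusted p of at most 0.05 and an absolute difference in log2 FC above 1). Of the 85 genes named, 28 were among them, 19 with a lower and 9 with a higher log2 FC at 72 h, not counting genes at the limit of detection. Over all genes tested, 7.85% passed, 5.71% with a lower and 2.14% with a higher log2 FC at 72 h. Many of the named genes were chosen for a large effect at 72 h, which enters the difference again, so nothing is read from their count.

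The difference in log2 FC, 72 h minus 24 h, was -4.48 for ENSCAFG00000014490, -2.89 for A4GALT, -2.54 for MYO1A, -2.51 for P4HA2 and -2.40 for IL23A. It was -2.33 for MTSS1, -2.29 for TRIB1, -2.15 for ALDH8A1, -1.63 for IER3 and -1.59 for NAB2. For CDKN2B it was -1.42, for MYC -1.40, for DLA-DRA -1.37, for PSAT1 -1.37, for TNF -1.29 and for MYB -1.14. TSPO (-1.11), SGK1 (-1.06) and DLA-DQA1 (-1.03) had the smallest of the negative differences.

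The log2 FC was higher at 72 h for SAPCD1 by 1.99, GRTP1 by 1.44, VARS1 by 1.33, TXNRD1 by 1.24 and POP1 by 1.20. For EIF4G2 the difference was 1.13, for WDR46 1.11, for ARSB 1.08 and for PFKFB2 1.04. VARS1, TXNRD1, EIF4G2, POP1, WDR46 and ARSB were lower than the controls at 24 h, with log2 FC from -0.60 to -0.36, and higher at 72 h. In the controls EIF4G2 went from 1931 CPM at 24 h to 1007 CPM at 72 h, and with Ibr + AS it was at 1286 and 1468 CPM. The same fit gave the change from 24 h to 72 h within each treatment. With DMSO its log2 FC was -0.94 for EIF4G2, -0.93 for VARS1, -0.93 for POP1 and -0.97 for WDR46. It was -0.74 for TXNRD1 and -0.76 for ARSB. With Ibr + AS the values were 0.19, 0.40, 0.27, 0.14, 0.50 and 0.31 in the same order. The cause of the change in the controls was not tested.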

How the results depend on the processing

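The 1405 DEGs of Ibr + AS against DMSO became 1301 with DESeq2, 1405 with RLE factors, 1273 with filterByExpr, 1402 with a filter of 1 read, 1407 with all 36 libraries and 1318 in a fit on the 6 libraries alone. With the inferred sequencing run as a further term, an alternative chosen after seeing the data, the count was 1403. In each replicate, both 72 h groups lay in the same inferred run. The term could therefore hardly move this count, and nothing is read from it. In the fit with no replicate block, which drops the passage pairing, it was 1403, against 1429 for the difference between 72 h and 24 h, 321 for Ibr + AS against Ibr and 582 against AS, so the block moved no count by over 1.5 times. Leaving out replicates gave 1178 to 1435 DEGs against DMSO, 1221 to 1596 genes for the difference from 24 h, 174 to 439 DEGs against Ibr and 419 to 699 against AS. Testing for a log2 FC beyond 1 (glmTreat) gave 523, 385, 43 and 125 for these 4 results, and the count against Ibr was 212 in a fit on the groups compared, 174 without Ibr replicate 1 and 199 without Ibr + AS replicate 3. Under glmTreat FBXO32, SAPCD1, BCL2, DEF6, TRIB1, IER3, SGK1, PFKFB2, TNF, IRF1, GSDMD, CDC25C, CDKN2B, TSPO, CRELD2 and AKAP12 were no longer called.

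When libraries were left out, the log2 FC of MYC ranged from -0.0486 to 0.0377 and that of CITED2 from -0.1558 to 0.0433, with a change of sign (without replicate 1, Ibr + AS replicate 1 or DMSO replicate 2 for MYC, without DMSO replicate 1 or Ibr + AS replicate 2 for CITED2). Neither was called in these fits, and the cause was not tested. TNF missed both limits without replicate 2 (-0.97, adjusted p = 0.0613 in edgeR) and fell under the fold limit without replicate 1 (-0.97). Genes under 3 reads per library give no fold, only bounds, at this depth.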

Other observations

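Other DEGs with a symbol that are not named above are given here, chosen after their values were seen. Among those that were lower are PTCH1, the receptor for hedgehog (log2 FC -1.82), the ubiquitin ligase gene NEDD4L (-1.05) and the gap junction gene GJA1 (-1.32). EXT1, a polymerase of heparan sulfate, had a log2 FC of -1.22, the uronyl sulfotransferase gene UST one of -1.34 and PODXL, which encodes podocalyxin, one of -1.22. The transcription factor genes HIVEP2 (-1.32) and HSF2 (-1.20) were lower. Among those that rose were ADCY7, an adenylate cyclase of lymphocytes (1.29), FGD2, an exchange factor for CDC42 (1.29), LGALS1, which encodes galectin 1 (1.09), and the histone methyltransferase gene SETD1B (1.04). Each had an adjusted p of at most 0.05 in edgeR, an absolute log2 FC above 1 and the same direction in all 3 passages.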
